A study of Mus musculus with 8 samples.

Results

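The mevalonate pathway enzymes that turn acetyl-CoA into farnesyl diphosphate and squalene were examined in cultured mouse macrophages loaded with a modified lipoprotein. The members were all probes of the bead array annotated to *Acat2*, *Hmgcs1*, *Mvk*, *Pmvk*, *Mvd*, *Idi1*, *Fdps*, LOC666559 or *Fdft1*. Of these 9 symbols, 7 had a probe, out of 30789 gene symbols on the array. *Fdps* had 2 probes and each other symbol had 1, which gave 8 probes. *Hmgcs1* and *Fdft1*, the steps that make HMG-CoA and squalene, had no probe under those symbols and were not analysed here.

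RNA from 8 samples of thioglycollate-elicited peritoneal macrophages of C57/BL6 mice aged 8 weeks was measured. Control samples (n = 4) were mock treated, and the other samples (n = 4) were incubated with acetylated low density lipoprotein (Ac-LDL) at 120 μg/ml for 24 h. Each group was numbered as biological replicates 1 to 4, with replicates 1 and 2 of both groups on one slide and replicates 3 and 4 on the other, so that each slide held 2 arrays of each group. According to the study's methods the animals were male and the cells were selected by adherence and kept in medium conditioned by L-929 cells. Whether a sample held cells of 1 or of several animals is not given in the sources used here, so the p-values measure the spread between these samples.

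The pathway joins 2 molecules of acetyl-CoA and then a further acetyl unit, reduces the product to mevalonate, phosphorylates mevalonate, removes a carbon to form the first isoprene unit, and condenses isoprene units into farnesyl diphosphate. Farnesyl diphosphate is the branch point between sterols and the other isoprenoids, such as dolichol, ubiquinone and the lipid anchors of small GTPases. In animal cells the genes of this pathway are known targets of SREBP-2, a transcription factor that is held in the endoplasmic reticulum when sterols are plentiful. Ac-LDL enters macrophages through scavenger receptors and delivers cholesterol to them.

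Each member probe is a 50-base oligonucleotide. The probe of *Fdps* with the higher signal (ILMN_1225730, RefSeq transcript position 911) and the probe of LOC666559 (ILMN_2540103) are printed here because their values moved closely together. LOC666559 is annotated on the array as similar to farnesyl pyrophosphate synthase. In the RefSeq gene table (GRCm38.p6) its gene number belongs to *Gm8163*, a pseudogene at chrX:60726334-60727523, whereas *Fdps* lies at chr3:89093588-89101967. The probe sequences, 5′ to 3′ with no part marked, were as follows.
Fdps: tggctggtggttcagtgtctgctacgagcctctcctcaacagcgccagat
LOC666559: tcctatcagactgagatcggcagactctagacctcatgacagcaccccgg
The longest run of bases shared by these probes on either strand was 6. No other probe of the array shared a run of 20 bases with any member probe. Whether transcripts of *Fdps* bind the LOC666559 probe was not tested.

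Upstream sequences are shown for *Acat2* and *Mvd*, the called genes for which the RefSeq promoter table (GRCm38.p6) had an entry. Each is the 250 bases before the annotated start, on the strand of the gene. Capitals mark 3 motifs searched on both strands, namely CACCCCAC (core of a sterol regulatory element), CCAAT and GGGCGG (GC box).
Acat2, chr17:12960726-12960975, minus strand: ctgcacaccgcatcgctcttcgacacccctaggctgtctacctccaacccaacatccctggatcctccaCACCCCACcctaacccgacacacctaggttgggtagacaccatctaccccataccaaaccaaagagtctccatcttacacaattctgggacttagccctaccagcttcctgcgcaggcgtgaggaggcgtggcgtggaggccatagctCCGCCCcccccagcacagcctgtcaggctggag
Mvd, chr8:122443423-122443672, minus strand: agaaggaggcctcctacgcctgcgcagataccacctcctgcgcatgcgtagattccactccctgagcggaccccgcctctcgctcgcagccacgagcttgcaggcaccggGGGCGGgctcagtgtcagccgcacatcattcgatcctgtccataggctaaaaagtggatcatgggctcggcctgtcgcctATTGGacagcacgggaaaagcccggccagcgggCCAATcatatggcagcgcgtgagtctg
The *Acat2* window held CACCCCAC once and the *Mvd* window held none. CACCCCAC was present in 2.58% of the 32851 promoter windows of the same length. The *Mvd* window held 2 CCAAT motifs and the *Acat2* window held none, while 10.1% of all windows held at least 2. The *Mvk* window, with 5 CCAAT motifs, belongs to a gene that was not called. A match is a description of these letters and does not show that a factor binds there.

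Signals are given on the log2 scale after background correction and quantile normalization. Because probes differ in binding, the level of one probe was not set against that of another, and only changes between groups were compared between probes. A probe counted as detected on an array when its detection p-value against the negative controls was at most 0.05. The comparison covered the 17122 probes detected on at least 4 of the 8 arrays, and a probe was called when limma's moderated test gave a Benjamini-Hochberg adjusted p under 0.05. By this filter, 7 of the 8 member probes, for 6 of the 7 symbols, were tested. The *Idi1* probe, detected on 3 arrays, was not.

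Of the 7 tested member probes, 4 were called lower with Ac-LDL, those of *Acat2*, *Mvd*, *Fdps* (brighter probe) and LOC666559, and 0 were called higher. Of all tested probes, 0.035% were called lower. The members were chosen with earlier results of these data known, so this share is given for scale and is no test. LOC666559 is a pseudogene and is no separate enzyme of the pathway. Every Ac-LDL array was below every control array for 7 of the 8 member probes, and this separation was seen in 1.68% of all tested probes. The 7 include the dimmer *Fdps* probe (ILMN_1232741), which passed the filter mainly through the control group and is not counted as support. The Ac-LDL mean was below the control mean for 8 of 8 member probes, the untested *Idi1* probe included, and for 8491 of the 17122 tested probes. Within pairs of arrays of the same replicate number, 7 of 8 probes were below the control in 4 of 4 pairs. These again include the dimmer *Fdps* probe, and the share of all tested probes for this count was not computed.

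**Figure D1:**
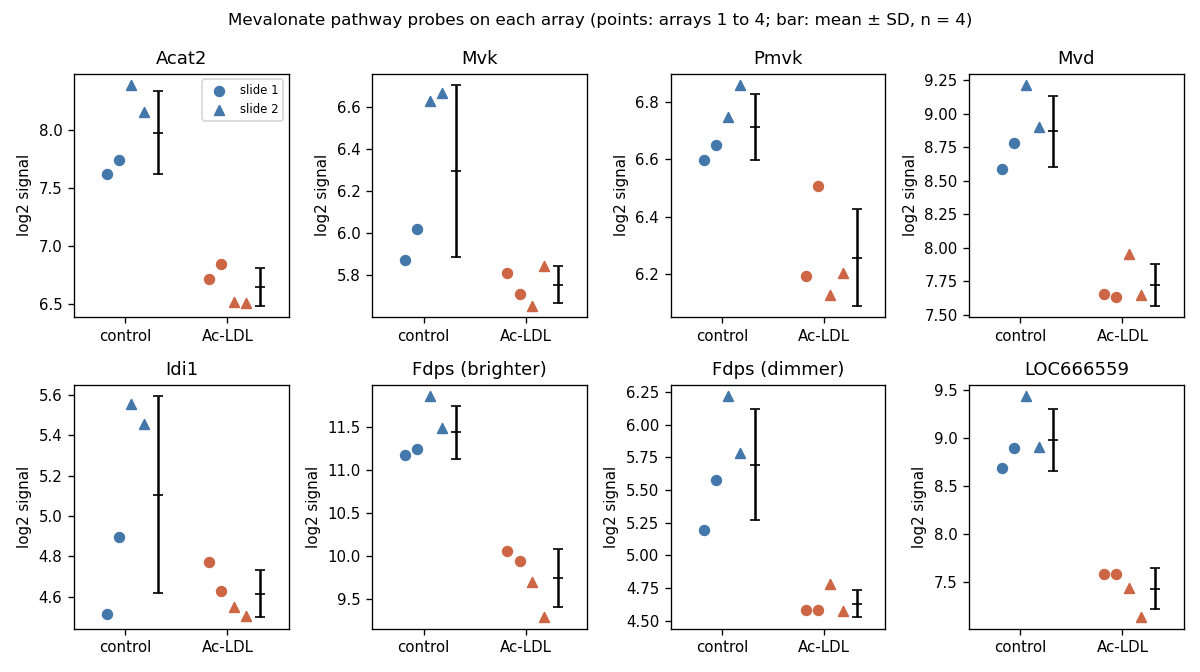
Normalized log2 signal (vertical axis, scaled for each probe) of the 8 member probes on the 4 control and 4 Ac-LDL arrays; circles are arrays of the first slide, triangles of the second, and black bars show mean ± SD. The groups overlap only for *Idi1*, and on the second slide the control arrays have a higher mean for all 8 probes.

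The first enzyme, *Acat2*, is the cytosolic thiolase that condenses 2 acetyl-CoA into acetoacetyl-CoA. Its gene lies at chr17:12943042-12960725 (GRCm38.p6). The *Acat2* signal was 7.63, 7.74, 8.39 and 8.16 on control arrays 1 to 4 and 6.72, 6.85, 6.51 and 6.51 on the Ac-LDL arrays. The lowest control array stood well above the highest Ac-LDL array. *Acat2* was 2.52-fold lower, a log2 change of -1.33 (SE 0.17, limma adjusted p = 0.0385). The SD between arrays was 0.36 in the control and 0.17 in the Ac-LDL group.

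*Acat3* is a close relative of *Acat2*, and its probe had a mean of 5.14 in both groups, a log2 change of 0.00 (SE 0.16). The related thiolase *Acat1*, which acts in mitochondria, was not tested because too few arrays detected its probe, and the same held for *Idi2*, a relative of *Idi1*.

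The next step builds HMG-CoA (*Hmgcs1*). The array holds a probe for LOC100040592, annotated as similar to the *Hmgcs1* protein, which is no member and was chosen after its annotation was seen. LOC100040592 averaged 12.89 ± 0.20 (SD, n = 4) on control and 11.79 ± 0.35 on Ac-LDL arrays. All 4 Ac-LDL arrays were below the controls. Its log2 change was -1.10 (SE 0.17) with an adjusted p of 0.0732, which did not pass the limit, and a limma fit blocked on the replicate number gave 0.0349.

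*Mvk* and *Pmvk*, the kinases that add phosphate to mevalonate in turn, did not pass the test. The *Mvk* signal was 5.87, 6.02, 6.63 and 6.67 on control arrays 1 to 4 and 5.81, 5.71, 5.65 and 5.85 on the Ac-LDL arrays. The first pair of *Mvk* arrays differed by only -0.06, and the spread among controls (SD 0.41) was far wider than among Ac-LDL arrays (SD 0.09). The log2 change of *Mvk* was -0.54 (SE 0.18, limma adjusted p = 0.807). The *Mvk* probe is annotated from a Riken source without a RefSeq transcript, and which transcript it reads was not tested.

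The *Pmvk* signal was 6.60, 6.65, 6.75 and 6.86 on the control arrays and 6.20, 6.51, 6.13 and 6.20 on the Ac-LDL arrays. Ac-LDL replicate 2 lay closest to the controls, 0.14 below its own pair. The log2 change of *Pmvk* was -0.45 (SE 0.11, limma adjusted p = 0.455). Beside *Mvk*, the probe of LOC637711, annotated as similar to mevalonate kinase and also chosen after its annotation was seen, changed by -0.70 (SE 0.17), with an adjusted p of 0.454 in limma without a block and 0.0267 with the replicate block.

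*Mvd* decarboxylates mevalonate diphosphate to isopentenyl diphosphate, the first isoprene unit, and lies at chr8:122433596-122443422. Its signal was 8.58, 8.78, 9.22 and 8.90 on the control arrays and 7.65, 7.63, 7.96 and 7.64 on the Ac-LDL arrays. Of the Ac-LDL arrays, 3 lay close together and replicate 3 was higher, still below every control. *Mvd* was 2.22-fold lower, a log2 change of -1.15 (SE 0.14, limma adjusted p = 0.0342).

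*Idi1* interconverts the 2 isoprene units, isopentenyl and dimethylallyl diphosphate. Its probe was detected on 3 control arrays and on 0 Ac-LDL arrays. The *Idi1* signal was 4.51, 4.89, 5.56 and 5.46 on the control arrays and 4.77, 4.63, 4.55 and 4.50 on the Ac-LDL arrays. Control replicate 1 lay within the Ac-LDL range, so the groups overlapped (exact two-sided permutation p = 0.114). The pairs of arrays differed by 0.26, -0.27, -1.01 and -0.95, and no fold is given because the probe was undetected on the Ac-LDL arrays.

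*Fdps* condenses isoprene units into farnesyl diphosphate. Its brighter probe read 11.17, 11.24, 11.85 and 11.48 on the control arrays and 10.05, 9.94, 9.70 and 9.29 on the Ac-LDL arrays. The groups were separated by more than the range within either of them. The brighter *Fdps* probe was 3.23-fold lower (31.0% of the control signal left), with a log2 change of -1.69 (SE 0.19, limma adjusted p = 0.0280). It had rank 1 by size of fall among the 17122 probes.

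The dimmer *Fdps* probe (ILMN_1232741) was detected on all 4 control arrays but on 1 Ac-LDL array, so that it passed the filter mainly through the control group. It read 5.19, 5.58, 6.22 and 5.79 on the control arrays and 4.58, 4.58, 4.78 and 4.57 on the Ac-LDL arrays. The Ac-LDL values lay near the floor of the scale. This probe is annotated from a MEEBO source without a RefSeq transcript. Its log2 change was -1.07 (SE 0.19) with an adjusted p of 0.110 in limma without a block, and of 0.0189 and 0.0223 in the fits blocked on replicate number and on slide. Its log2 change was -0.56 with a normexp offset of 50. The dimmer probe was called in the blocked fits, and not without a block unless control replicate 1 was left out (limma adjusted p = 0.0478).

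LOC666559, the *Fdps* pseudogene, read 8.69, 8.90, 9.44 and 8.91 on the control arrays and 7.59, 7.58, 7.44 and 7.13 on the Ac-LDL arrays. It was 2.93-fold lower, a log2 change of -1.55 (SE 0.17, limma adjusted p = 0.0269), and had rank 1 by p among all tested probes. The array with the highest value in each group and that with the lowest were the same arrays for LOC666559 and the brighter *Fdps* probe. The within-array difference between them changed by 0.14 (SE 0.08), with overlapping groups (exact two-sided permutation p = 0.171).

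The same 4 probes were called lower in the fits blocked on the replicate number (0.28% of all tested probes called lower) and on the slide (0.234% of all). The dimmer *Fdps* probe made 5 called probes in each blocked fit, but as it passed the filter through the control group it is not counted as support. The 4 calls of the fit without a block did not survive the removal of any 1 Ac-LDL array or of control replicate 4, where their adjusted p ran from 0.0555 to 0.230. Removal of control replicate 1, 2 or 3 left all 4 of them called.

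**Figure D2:**
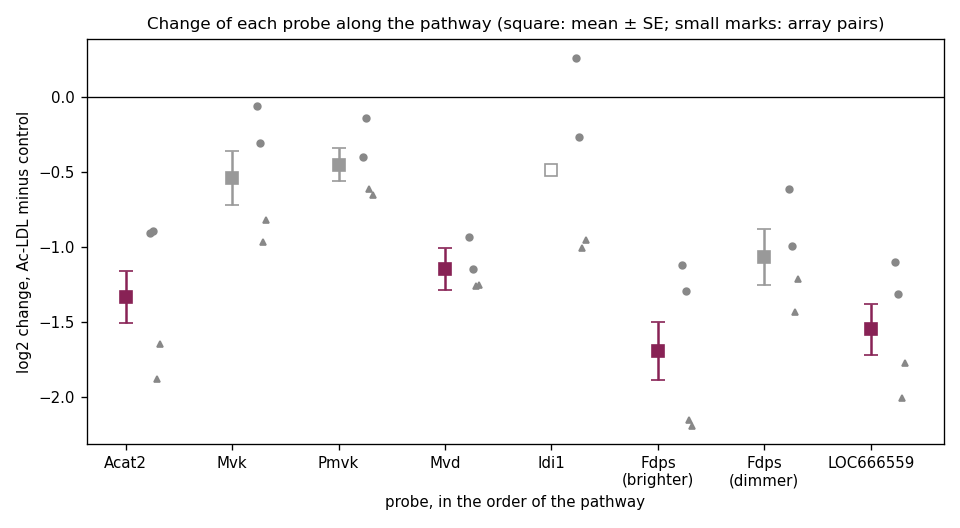
Log2 change, Ac-LDL minus control (vertical axis), of each member probe in the order of the pathway; squares show the mean with the limma SE, dark squares are called, the open square is the untested *Idi1* probe, and small marks are the 4 pairs of arrays (circles, first slide; triangles, second). Among the tested probes the change is deepest at the brighter *Fdps* probe (-1.69) and shallowest at *Pmvk* (-0.45). The changes of *Pmvk* and *Mvk* (-0.54) did not differ by the exact permutation test (p = 0.657).

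Whether the change differed from one measured step to the next was tested on the difference of the log2 values within each array, over 5 neighbouring pairs. An exact two-sided permutation test has a smallest possible p of 0.0286 with 4 arrays a group. Adjusted over the 5 pairs this became 0.0357, a value that rests in part on the equally small p of the *Idi1* pairs. The *Idi1* pairs are given as values only below, and an adjustment without them was not made. The change of *Mvk* was shallower than that of *Acat2* by 0.79 (SE 0.12, exact permutation p = 0.0286, adjusted 0.0357). The change of *Mvd* was deeper than that of *Pmvk* by -0.69 (SE 0.18), with the same exact p. *Mvk* and *Pmvk* did not differ by this test, with a difference of 0.09 (SE 0.18, exact permutation p = 0.657). By the exact p without adjustment, the change at the kinase probes was thus smaller than at *Acat2* and *Mvd*, their measured neighbours. For *Mvk* this rests on a probe annotated without a RefSeq transcript. Left-out arrays kept the direction of these differences, but the adjusted exact permutation p became 0.0714 without control replicate 1, 2 or 3 for *Mvk* minus *Acat2* (0.77 to 0.78), and without any 1 control array for *Mvd* minus *Pmvk* (-0.75 to -0.59). The raw signals were 72.6 to 138 for *Mvk* and 88.6 to 155 for *Pmvk*, against a median of 42.5 to 46.4 over all probes of an array, and the part of the background in these differences was not tested.

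The remaining pairs hold *Idi1*, with differences of 0.66 for *Idi1* minus *Mvd* and -1.20 for *Fdps* minus *Idi1*. Since the *Idi1* probe was not detected on any Ac-LDL array, the background limits how far its signal could go down, so these are given as values only. The same limit holds for the dimmer *Fdps* probe, so no comparison of its change with that of the brighter one is given.

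The change was larger on the second slide than on the first for 8 of 8 member probes. Of all tested probes, 50.3% had the lower value of this change on the second slide. *Acat2* changed by -0.90 on the first slide and by -1.76 on the second. For the brighter *Fdps* probe the values were -1.21 and -2.17, and for LOC666559 they were -1.21 and -1.89. *Mvd* differed least, at -1.04 and -1.26.

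None of these slide differences passed the test over all probes. The limma interaction of treatment and slide had an adjusted p of 0.358 for *Acat2*, 0.442 for both *Mvk* and the brighter *Fdps* probe, 0.563 for LOC666559 and 0.815 for *Mvd*. At an unadjusted p under 0.05 it counted 4 of the 7 tested member probes and 8.38% of all tested probes, and after adjustment 0 of all 17122. Within each slide the Ac-LDL mean was below the control mean for 8 of 8 member probes, though for *Idi1* on the first slide by only -0.005. The median over the tested probes was -0.90 on the first slide and -1.32 on the second, where the middle value was that of the dimmer *Fdps* probe. The shares of all tested probes with a lower mean within each slide were not computed.

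**Figure D3:**
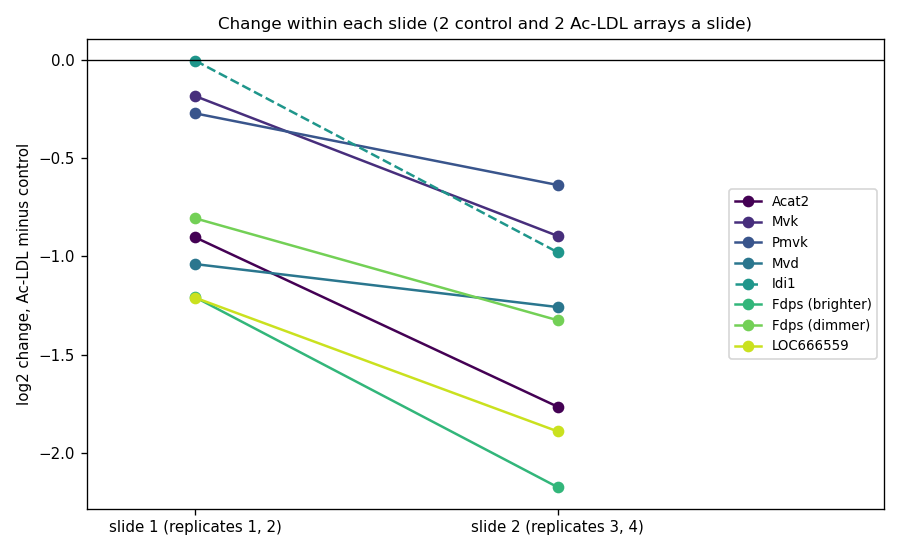
Log2 change, Ac-LDL minus control (vertical axis), of each member probe within the first and the second slide (2 arrays of each group a slide); the dashed line is the untested *Idi1* probe. All 8 lines go down from the first slide to the second, from -0.90 to -1.76 for *Acat2*.

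The slides differed in both groups. The control mean was higher on the second slide for 8 of 8 member probes, by a median of 0.53, whereas over all tested probes the median difference was -0.02. The Ac-LDL mean was lower on the second slide for 6 of 8 member probes, with a median difference of -0.18 over the 8. No share of all tested probes is given for this count. On the first and second slide the Ac-LDL means of *Mvk* were 5.76 and 5.75. Those of *Mvd* were 7.64 and 7.80. For LOC666559 the means were 8.80 and 9.18 on the control and 7.58 and 7.28 on the Ac-LDL arrays of the first and second slide. Averaged over the 6 tested genes, control replicate 3 stood 0.33 above and control replicate 1 stood 0.29 below the mean of their group, and control replicate 3 was the highest control for 4 of 6 genes. Quantile normalization gave all arrays the same median of 6.81, and the number of detected probes (16679 to 17439) and of beads per probe (median 43 or 44) varied little.

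Around the members, the genes of late sterol synthesis, from squalene to cholesterol, had 12 tested genes, all with a lower mean, of which 0 were called without a block and 6 with the replicate block. Their median change was -1.11, beside -1.24 for the 6 tested member genes and 0.00 for all tested probes. The member genes here include LOC666559, the *Fdps* pseudogene, and without it their middle value is that of *Mvd* (-1.15). The called genes were *Cyp51* (-1.59), *Sc4mol* (-1.45), *Sqle* (-1.41), *Hsd17b7* (-1.27), *Lss* (-1.20) and *Nsdhl* (-1.02), which encode the squalene epoxidase (*Sqle*), the cyclase that forms lanosterol (*Lss*) and enzymes that remove its methyl groups.

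Of the regulators and uptake genes of the list, 11 were tested, 8 with a lower mean, 0 called without a block and 4 called lower with the replicate block. Among these were *Insig1* (-1.45), which retains the SREBP escort protein, and *Srebf2* (-0.88), which encodes SREBP-2. The list of other enzymes that make, attach or process isoprenoids outside the sterol branch had 11 tested genes, 0 called in either fit, and a median change of -0.02, from -0.12 to 0.17. They include the subunits of the protein prenyltransferases (*Fnta*, *Fntb*, *Rabggta*, *Rabggtb*) and enzymes of ubiquinone and dolichol synthesis (*Pdss1*, *Coq2*, *Dhdds*).

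**Figure D4:**
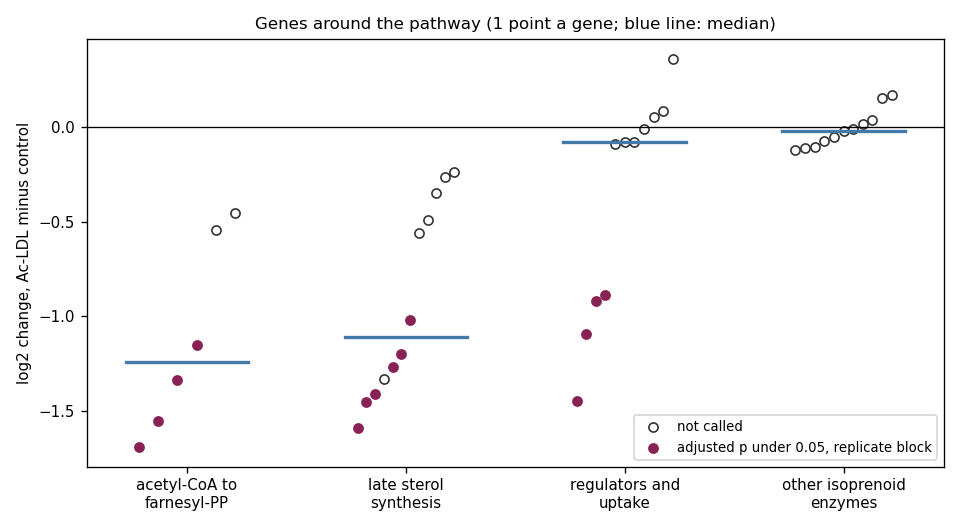
Log2 change, Ac-LDL minus control (vertical axis), of the tested genes of each list, 1 point a gene given by its brightest tested probe; the first group holds the 6 tested member genes with LOC666559 included. Filled points have an adjusted p under 0.05 in limma with the replicate block, and the blue lines are medians, which lie at -1.24 for the members and at -0.02 for the other isoprenoid enzymes.

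The non-member probes whose values over the 8 arrays were most like the mean of the 6 standardised member profiles were listed by Pearson's r, as a description over 8 arrays of 2 groups that share slides. Among the first 10 were *Stard4* (0.990), *Sc4mol* (0.989), *Insig1* (0.988), *Acsl3* (0.984), *Atg9b* (0.978), *Snapc1* (0.974) and *Scd1* (0.972).

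The labelled cell type was checked against markers. Of 8 macrophage markers, 7 were detected on all 8 arrays and the *Msr1* probe on 0, and their summed level ran from 15.24 to 15.59 on control and from 15.29 to 15.57 on Ac-LDL arrays (log2). The fibroblast markers *Col1a1*, *Col3a1* and *Dcn* were detected on all arrays, with a sum of 13.12 to 13.58 and 13.20 to 13.44, as was the mesothelial marker *Upk3b*, with a sum of the 3 mesothelial markers of 11.16 to 11.73 and 11.38 to 11.58. The summed neutrophil markers ran from 9.22 to 9.36 on control and from 9.43 to 9.57 on Ac-LDL arrays. Of these markers *S100a8* was detected on all 8 arrays, while *S100a9* and *Ngp* were detected on 0 arrays. The markers of B cells, T cells, eosinophils and mast cells had 0 genes detected on all arrays. No marker was called, and the part of these cells in the changes of the members was not tested. In these bulk samples, fewer cells that express a gene and less of its RNA per cell cannot be told apart.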

How the data were processed

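RNA was measured on Illumina Mouse WG-6 v2.0 bead chips. The authors deposited, from BeadStudio, the mean bead intensity of each of 45281 probes without background subtraction or normalization, the bead standard error of that intensity, a detection p-value and the count of beads. The GeneSpring-normalized values of the study were not used here, and the genome build of the probe coordinates is not given in the sources used here.

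Intensities were processed in R 4.3.3 with limma 3.58.1 by neqc (normexp, with the background estimated through the detection p-values, offset 16, quantile normalization, log2). Groups followed the labels, and the fit was unpaired, as in the study. Deviations of arrays of the same number correlated (r of 0.579, 0.479, 0.468 and 0.629), so further fits were blocked on the number or on the slide. Single values were tested over all 70 assignments of arrays. The number of arrays limits the precision. Control arrays and Ac-LDL arrays always lay at different positions of a slide, so position and group cannot be told apart.

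Where probes of a gene were several, the brightest tested one stood for it. All member probes were named, with the called and paralogous genes of the lists and the 10 most similar profiles, apart from some genes that are not reported here but stay in the counts of their lists. The planned steps of *Hmgcs1* and *Fdft1* had no probe under their symbol, so neighbouring pairs were formed among the measured steps. The members and gene lists were chosen with earlier results of these data known. The test was checked on simulated data. Alternatives covered background correction, normalization, filter, prior, the methods' t-test, blocks and left-out arrays.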

Additional observations from a re-analysis of the deposited data

Results flagged for a closer look

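Of 20 groups of 4 arrays examined for a value far from the others, 2 were flagged, where chance flags about 1 in 20. Ac-LDL replicate 3 read 7.96 for *Mvd*, while the other Ac-LDL arrays lay between 7.63 and 7.65. Without this array the change of *Mvd* was -1.23 (limma adjusted p = 0.132) in place of -1.15. The same array read 4.78 for the dimmer *Fdps* probe (ILMN_1232741), while the other Ac-LDL arrays lay between 4.57 and 4.58, and it is the Ac-LDL array on which that probe was detected. Without it the change of this probe was -1.12 (limma adjusted p = 0.275) in place of -1.07.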

How the results depend on the processing

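The direction of every member probe was the same under each alternative run. The count of 4 called probes and of 4 called genes, LOC666559 included, became 0 without the detection filter, where 45281 probes were tested (limma adjusted p from 0.239 to 0.328 for the 4 probes). Both counts were also 0 under the methods' t-test after Benjamini-Hochberg adjustment (adjusted p = 0.437). By that t-test, 7 of 7 tested member probes and 6.07% of all tested probes had an unadjusted p under 0.05. With 1 array left out, or both arrays of a number, the counts ran from 0 to 5 for probes and from 0 to 4 for genes. With 1 array left out, 7 of 7 tested member probes had an unadjusted limma p under 0.05 each time, beside 3.73% to 6.63% of all tested probes. Without both arrays of replicate 3 it was 6 of 7, beside 3.83%. The 7 tested member probes include the dimmer *Fdps* probe, which passed the filter mainly through the control group. The counts of called probes and genes stayed at 3 to 5 under the other alternatives. With an offset of 50, *Acat2* was not called (-1.10, adjusted p = 0.0507). The late sterol genes called lower went from 0 to 6 with the replicate block. Median scaling moved the median of all tested probes to -0.09. The replicate block changed no call of a member other than that of the dimmer *Fdps* probe (adjusted p = 0.0189). The causes were not tested. Signals of *Idi1* and of the dimmer *Fdps* probe near background limit what can be said of their size of change.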
